A study of Bos taurus with 8 samples.

Results

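OSMR, IL4R, TNFRSF1A and FAS encode receptors through which endothelial cells sense other cytokines and death ligands, and they were 4 of the 25889 rows of the count table. They were chosen by a measured value, since each was among the genes that the study had called after LIF in bovine choroidal endothelial (BCE) cells. Their LIF effect in BCE cells is therefore given as a description, without a test, and their LIF effect in bovine aortic endothelial (BAE) cells, whose libraries had no part in that choice, is the effect that was tested. RNA of both cell types was sequenced after 6 h with leukemia inhibitory factor (LIF) at 10 ng/ml or with vehicle (0.1% BSA in PBS), to compare how LIF acts on the transcriptome of a microvascular and a large-vessel endothelium. There were 4 groups of 2 libraries: vehicle-treated BAE cells, LIF-treated BAE cells, vehicle-treated BCE cells and LIF-treated BCE cells. Both cell types were cultured cells, grown in 10% bovine calf serum, and BCE cells were also given bFGF at 5 ng/ml and VEGF at 10 ng/ml and kept on fibronectin. For the 3 h before LIF or vehicle, BCE cells were in medium with 10% serum and BAE cells in medium with 1% serum. The study's methods describe no change of medium for the 6 h with LIF or vehicle that followed. Cell type, serum and culture history therefore cannot be told apart in any comparison of BCE with BAE cells.

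LIF belongs to the interleukin-6 family of cytokines and signals through a pair of membrane chains, LIFR and gp130, which activate JAK kinases and the transcription factor STAT3. OSMR is the chain that pairs with gp130 to bind oncostatin M, a cytokine of the same family. IL4R is the alpha chain that binds interleukin-4 and that also serves the interleukin-13 receptor, and it signals mainly through STAT6. TNFRSF1A is the widely expressed receptor 1 for tumor necrosis factor, and FAS is the receptor for Fas ligand. Both belong to the TNF receptor superfamily and carry an intracellular death domain, which in endothelial cells can couple to inflammatory gene expression or to cell death.

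Library totals ranged from 18600598 to 35269335 counts, and levels are given in CPM, that is counts put on one library size by TMM factors. At these depths 3 counts, the floor below which no level was read, corresponded to between 0.0873 and 0.156 CPM, and no library of the 4 genes came near it. Gene lengths were not used, so levels were compared between samples within a gene. Ratios of the counts of 2 genes were likewise compared only between libraries. In bulk RNA a higher level cannot be told apart from a larger share of cells that express the gene, and gene-level counts do not separate transcripts of membrane-bound and soluble receptor forms. The methods of the study call the 2 libraries of a group biological replicates but do not say how the cultures were kept apart, so p-values measure the spread between these libraries. None of the 51 cell type markers that were looked for, endothelial markers included, had an identifier paired with its symbol here, so the endothelial label was not checked.

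All 4 receptor genes rose with LIF in BAE cells, by between 0.83 and 1.74 on the log2 scale, and both LIF-treated libraries lay above both vehicle-treated libraries for each. In point estimate the largest rise was that of FAS and the smallest that of TNFRSF1A. In this comparison 13.6% of the 13034 genes tested rose past an adjusted p of 0.05 in edgeR's quasi-likelihood test, and 26.0% had non-overlapping groups with the LIF-treated libraries higher. The median log2 fold change over all genes tested was -0.0039.

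For OSMR (ENSBTAG00000033107), the oncostatin M receptor chain, the vehicle-treated BAE libraries held 834 and 560 counts, which are 24.3 and 25.6 CPM. The LIF-treated BAE libraries held 1244 and 1365 counts, or 59.4 and 53.0 CPM. Both LIF-treated libraries stood far above both vehicle-treated ones, and the groups did not overlap. The log2 fold change was 1.20 (standard error, SE, 0.0767, 95% interval from 1.04 to 1.37, adjusted p = 5.72e-09 in edgeR's quasi-likelihood test), rank 149 among the 13034 genes ordered by log2 fold change.

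For IL4R (ENSBTAG00000001602), the interleukin-4 receptor alpha chain, counts were 772 and 576 in the vehicle-treated BAE libraries, or 22.5 and 26.4 CPM. They were 1208 and 1785 in the LIF-treated BAE libraries, or 57.7 and 69.3 CPM. Replicates of IL4R lay further apart in relative terms than those of the other 3 genes in BAE cells, with a coefficient of variation of 11.3% with vehicle and 12.9% with LIF, and the groups still did not overlap. IL4R rose by a log2 fold change of 1.42 (SE 0.0908, 95% interval from 1.23 to 1.61, adjusted p = 5.93e-09), rank 96.

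TNFRSF1A (ENSBTAG00000004211), the TNF receptor, gave the most counts of the set. The vehicle-treated BAE libraries held 8101 and 5174 counts, or 236 and 237 CPM, and the LIF-treated BAE libraries held 8431 and 10720 counts, or 403 and 416 CPM. Replicates were close in both groups, and the gap between the groups was many times the gap within either. The log2 fold change was 0.83 (SE 0.0416, 95% interval from 0.74 to 0.91, adjusted p = 3.13e-10), rank 317.

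For FAS (ENSBTAG00000010785), the Fas ligand receptor, the vehicle-treated BAE libraries held 391 and 253 counts, or 11.4 and 11.6 CPM. The LIF-treated BAE libraries held 765 and 994 counts, or 36.5 and 38.6 CPM. The groups lay far apart relative to their spread. FAS rose by a log2 fold change of 1.74 (SE 0.0833, 95% interval from 1.57 to 1.92, adjusted p = 1.74e-10), rank 48, which places it above OSMR, IL4R and TNFRSF1A. Each of the 4 rises in BAE cells passed the threshold under all 11 alternatives tried, with log2 fold changes from 1.06 to 1.28 for OSMR, from 1.27 to 1.54 for IL4R, from 0.79 to 0.84 for TNFRSF1A and from 1.70 to 1.84 for FAS.

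**Figure D1:**
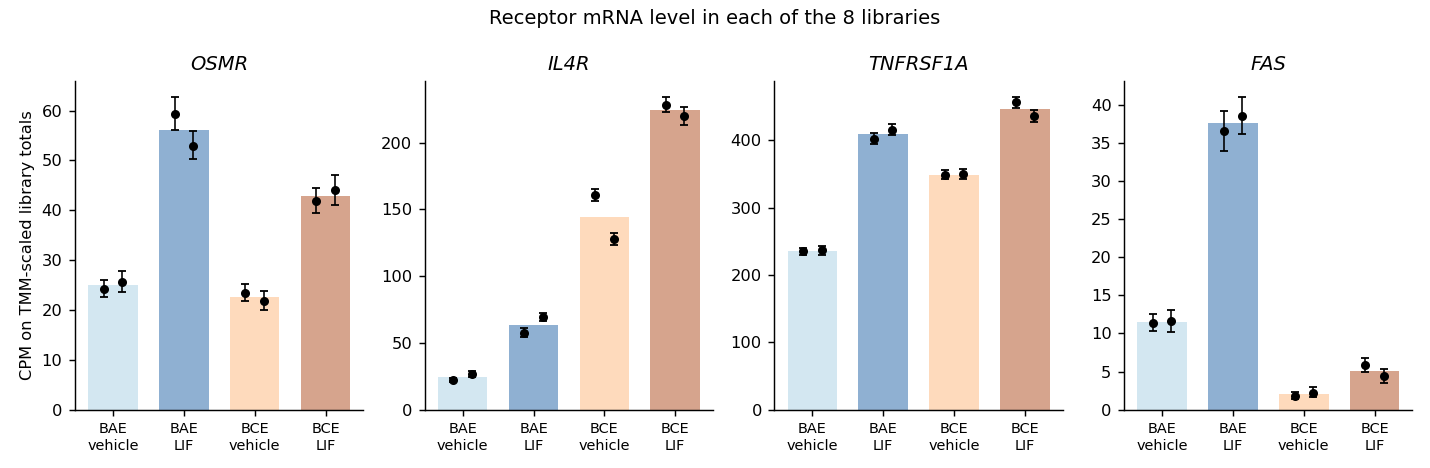
Level of each receptor mRNA in the 8 libraries, in CPM on TMM-scaled library totals, with a separate vertical axis from 0 for each gene. Bars are group means of 2 libraries, points are single libraries and error bars are exact 95% Poisson intervals of counting error. LIF-treated libraries lie above the vehicle-treated libraries of the same cell type for every gene, IL4R is higher in BCE than in BAE cells and FAS is lower.

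In BCE cells the LIF effect was the value the choice of genes rested on, and it was smaller in point estimate than in BAE cells for each of the 4. In that comparison 0.692% of the 13014 genes tested rose past the threshold and 20.1% had non-overlapping groups with the LIF-treated libraries higher, and nothing is read from these shares for genes selected on the same contrast. OSMR had 699 and 528 counts in the vehicle-treated BCE libraries, or 23.5 and 21.9 CPM, and 1080 and 847 counts after LIF, or 41.8 and 44.0 CPM. These groups did not overlap, and the log2 fold change was 0.92 (SE 0.0802). IL4R had 4778 and 3085 counts with vehicle, or 161 and 128 CPM, and 5898 and 4229 counts with LIF, or 228 and 220 CPM. The vehicle-treated libraries of IL4R lay further apart than its LIF-treated ones, and the log2 fold change of 0.63 (SE 0.0880) became 0.81 without the first of them and 0.48 without the second. The same pair of vehicle-treated BCE libraries also differed most over all genes, with a chi-square per degree of freedom of 10.1 against 2.64 to 6.19 for the other 3 pairs.

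TNFRSF1A had 10394 and 8428 counts in the vehicle-treated BCE libraries, both 349 CPM, and 11792 and 8396 counts after LIF, or 457 and 436 CPM. The vehicle-treated libraries were almost equal and the LIF-treated ones both lay above them, with a log2 fold change of 0.36 (SE 0.0464). FAS was scarce in BCE cells, with 54 counts in each vehicle-treated library, or 1.81 and 2.24 CPM, and 150 and 84 counts after LIF, or 5.81 and 4.37 CPM. At 54 counts the exact 95% Poisson interval ran from 1.36 to 2.37 CPM in the first vehicle-treated library and from 1.68 to 2.92 CPM in the second, and this counting error goes with the widest interval of the 4 genes, a log2 fold change of 1.35 with a 95% interval from 0.85 to 1.85. The groups of FAS did not overlap.

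**Figure D2:**
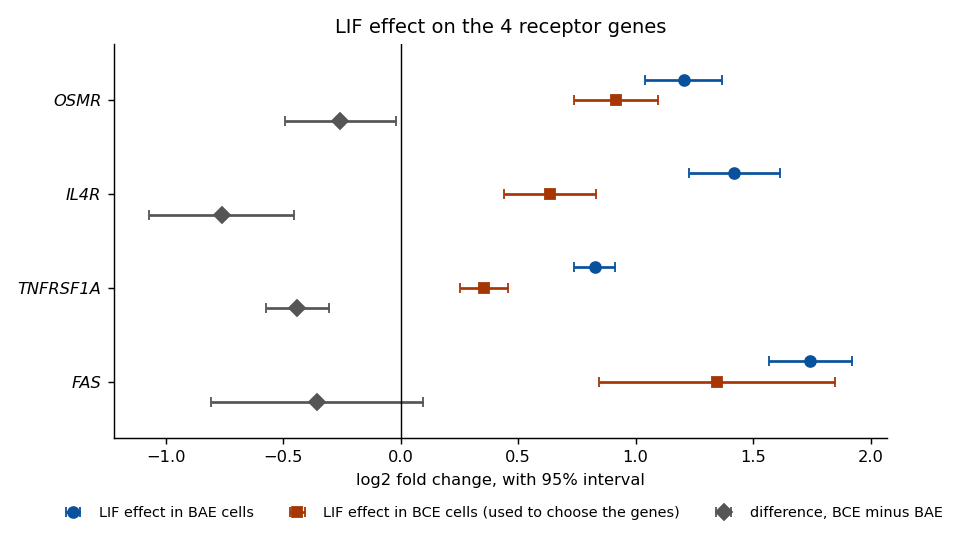
Log2 fold change after LIF in BAE cells (circles), in BCE cells (squares) and the difference between them, BCE minus BAE (diamonds), for each gene, with 95% intervals that are not adjusted for multiple tests. All circles and squares lie above 0, all diamonds lie below 0, and the interval of the FAS difference spans 0.

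The difference between the LIF effects was tested as an interaction over all 8 libraries, with the BCE libraries being those the choice of genes had used. The BCE part of this difference is the effect the genes were chosen on, so its p-values are not free of that choice. The difference was negative for all 4 genes, which means a smaller proportional rise in BCE cells. It passed the threshold for IL4R and TNFRSF1A, that is for 2 of 4 genes. Over all 13646 genes tested, 3.68% passed in either direction and 2.52% passed with the smaller log2 fold change in BCE cells. For 79 other genes called by the study and higher after LIF in BCE cells, the median log2 fold change was also smaller there. It was 0.50 in BCE cells and 0.82 in BAE cells. A smaller effect in BCE cells was therefore not particular to the receptors. For TNFRSF1A the difference was -0.44 (SE 0.0630, 95% interval from -0.57 to -0.30, adjusted p = 0.000615 in edgeR's quasi-likelihood test), and it passed under all 14 alternatives, with adjusted p values up to 0.0204. For IL4R it was -0.76 (SE 0.145, 95% interval from -1.07 to -0.45, adjusted p = 0.00628). The IL4R difference did not pass without the first vehicle-treated BAE library (-0.64, adjusted p = 0.0652), nor without the second LIF-treated BAE library (-0.62, adjusted p = 0.0683), nor with the number in the sample descriptions as a replicate block (-0.65, adjusted p = 0.208).

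For OSMR the difference was -0.26 with a 95% interval from -0.49 to -0.02 and an adjusted p of 0.266. For FAS it was -0.36 with a 95% interval from -0.81 to 0.10 and an adjusted p of 0.446. Neither passed the threshold in any of the 14 alternatives, and the intervals allow the OSMR effects to be nearly equal or to differ by as much as 0.49, and the FAS effect to be slightly larger in BCE cells or smaller by 0.81. The plot of this difference under each alternative shows that all 4 genes kept a negative sign. The size was less stable: OSMR had -0.03 with the descriptions' number as a replicate block, and FAS ranged from -0.62 with that block to -0.20 without the second LIF-treated BCE library, with -0.61 without the first.

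**Figure D3:**
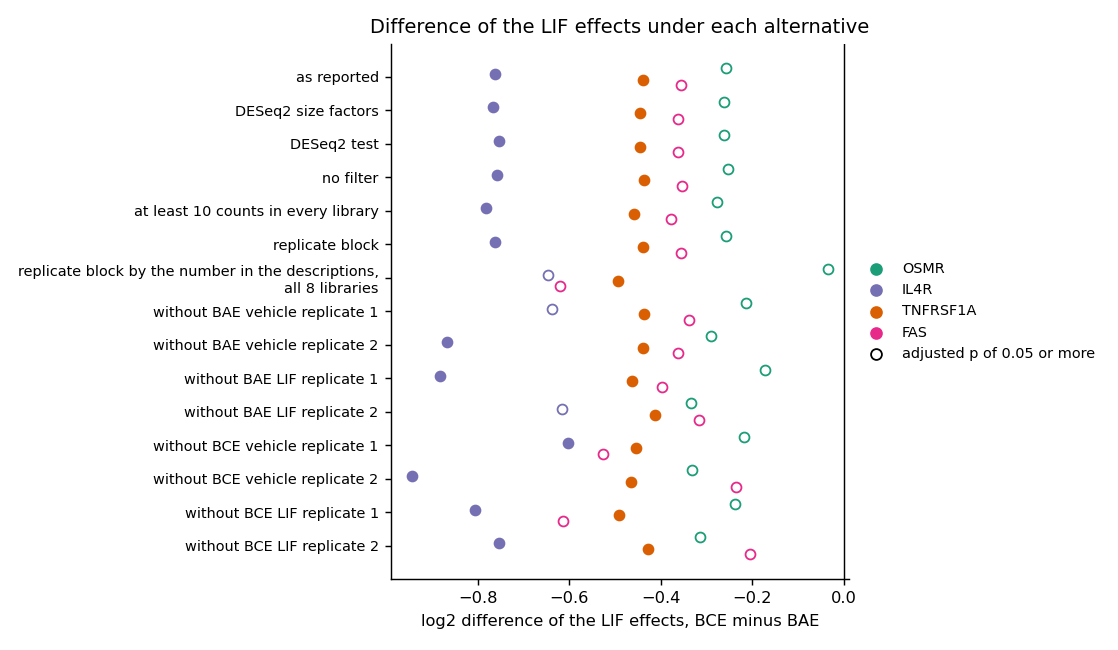
Difference between the log2 LIF effects, BCE minus BAE (horizontal axis), for each gene as reported and under each of the 14 alternatives (rows). Filled points have an adjusted p under 0.05 and open points do not. TNFRSF1A stays between -0.49 and -0.41 and filled throughout, IL4R is open in 3 alternatives, and OSMR and FAS are open in all of them.

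On the linear scale the order of the cell types was not the same for each gene. The mean CPM gained with LIF was 39.1 in BAE cells and 79.9 in BCE cells for IL4R, a gain 2.04 times larger in BCE cells although its fold change was smaller there. For TNFRSF1A the gain was 173 CPM in BAE cells and 97.1 CPM in BCE cells, and for OSMR it was 31.2 and 20.2 CPM. For FAS it was 26.1 CPM in BAE cells and 3.06 CPM in BCE cells, 8.52 times larger in BAE cells. These gains are descriptions of group means and were not tested.

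**Figure D4:**
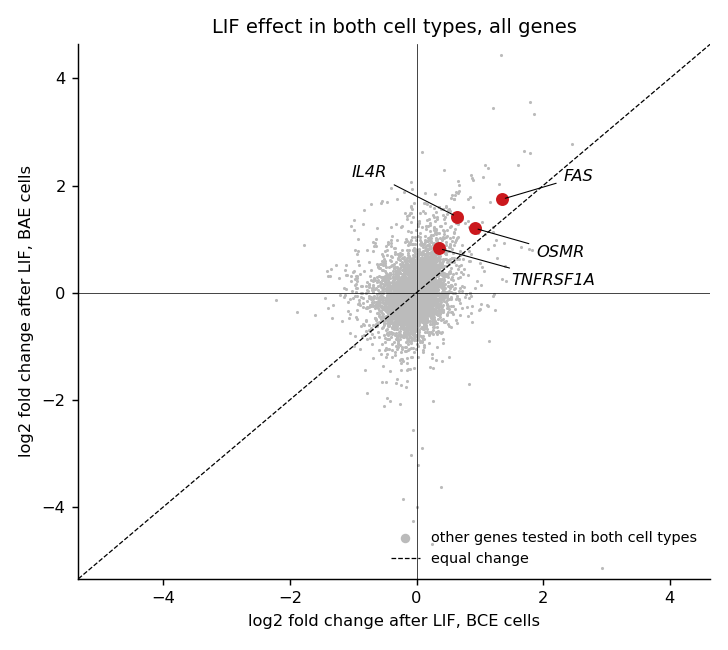
Log2 fold change after LIF in BCE cells (horizontal) and BAE cells (vertical) for all genes tested in both, with the 4 receptor genes in red and a dashed line of equal change. All 4 lie in the upper right and above the dashed line, and their position on the horizontal axis is what they were chosen for.

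The resting levels of the 4 receptors differed between the cell types in 3 of 4 genes, in different directions. The vehicle-treated BCE libraries of this comparison also took part in the choice of the genes, though the choice rested on their difference from LIF-treated cells. Over all 13426 genes tested, 26.2% were higher and 27.6% lower in BCE cells past an adjusted p of 0.05, and 38.5% and 38.8% had non-overlapping groups in these directions, so that a difference between the cell types was common among all genes. IL4R averaged 144 ± 23.1 CPM in vehicle-treated BCE cells and 24.4 ± 2.77 CPM in vehicle-treated BAE cells (SD, n = 2 each). The log2 difference was 2.57 (SE 0.112, 95% interval from 2.32 to 2.81, adjusted p = 2.36e-09 in edgeR's quasi-likelihood test), which placed IL4R at rank 409. FAS showed the opposite pattern, with 2.03 ± 0.300 CPM in vehicle-treated BCE cells and 11.5 ± 0.149 CPM in vehicle-treated BAE cells. Its log2 difference was -2.51 (SE 0.166, 95% interval from -2.88 to -2.15, adjusted p = 1.08e-07).

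TNFRSF1A was moderately higher in vehicle-treated BCE cells, with 349 ± 0.143 CPM against 236 ± 0.899 CPM in vehicle-treated BAE cells. Its log2 difference was 0.56 (SE 0.0514, 95% interval from 0.45 to 0.67, adjusted p = 2.13e-06). OSMR averaged 22.7 ± 1.13 CPM in vehicle-treated BCE cells and 25.0 ± 0.978 CPM in vehicle-treated BAE cells. The libraries of OSMR did not overlap between the cell types, but the log2 difference of -0.14 missed the threshold (95% interval from -0.34 to 0.07, adjusted p = 0.241). Each of these calls was the same under all 10 alternatives.

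After LIF the comparison of BCE with BAE cells gave a difference for each gene, again beside a high background, with 31.7% of the 13217 genes tested higher and 32.2% lower in BCE cells and 40.5% and 40.4% not overlapping in these directions. It shares its LIF-treated BCE libraries with the choice of the genes. IL4R averaged 224 ± 6.11 CPM in LIF-treated BCE cells and 63.5 ± 8.21 CPM in LIF-treated BAE cells, a log2 difference of 1.82 (adjusted p = 1.04e-21 in edgeR's quasi-likelihood test). FAS averaged 5.09 ± 1.02 CPM in LIF-treated BCE cells and 37.6 ± 1.46 CPM in LIF-treated BAE cells, a log2 difference of -2.86 (adjusted p = 9.26e-20). OSMR averaged 42.9 ± 1.55 CPM against 56.2 ± 4.53 CPM, a log2 difference of -0.39 (95% interval from -0.52 to -0.25, adjusted p = 9.16e-06), so that BAE cells had the higher OSMR level after LIF.

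For TNFRSF1A the 2 cell types were closest after LIF, with 446.5 ± 14.4 CPM in BCE cells and 409 ± 9.59 CPM in BAE cells. The log2 difference was 0.13 (SE 0.0414, 95% interval from 0.04 to 0.21, adjusted p = 0.00924). This call was lost without the first LIF-treated BAE library (0.10, adjusted p = 0.0574) and without the first LIF-treated BCE library (0.096, adjusted p = 0.141).

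**Figure D5:**
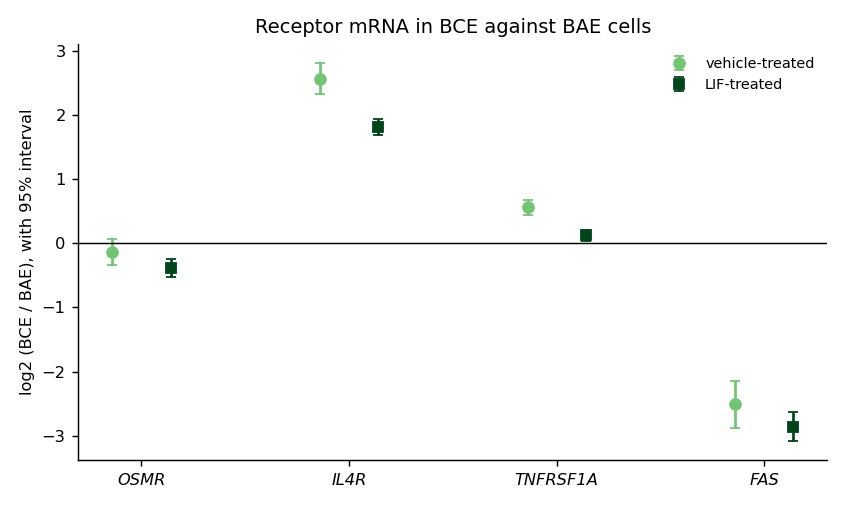
Log2 of the level in BCE over BAE cells (vertical axis) for each gene, with vehicle (circles) and with LIF (squares), and 95% intervals that are not adjusted for multiple tests. IL4R lies above 0 and FAS below 0 in both treatments, TNFRSF1A lies close to 0 after LIF, and the interval of OSMR spans 0 with vehicle.

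Ordered by level, the 4 groups stood in a different sequence for each gene, and no group overlapped the next in any of the 4. Such a separation was found in 15.7% of the 13646 genes, and the separation of LIF-treated from vehicle-treated BCE cells was part of the choice of the 4 genes. For IL4R the order from low to high was vehicle-treated BAE, LIF-treated BAE, vehicle-treated BCE and LIF-treated BCE cells. LIF-treated BAE cells reached 44.0% of the mean IL4R level of vehicle-treated BCE cells. For FAS the order was vehicle-treated BCE, LIF-treated BCE, vehicle-treated BAE and LIF-treated BAE cells, and LIF-treated BCE cells reached 44.3% of the mean FAS level of vehicle-treated BAE cells. For both genes cell type separated the groups more than LIF did.

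For OSMR and TNFRSF1A the groups were instead arranged by treatment. OSMR rose from vehicle-treated BCE over vehicle-treated BAE and LIF-treated BCE to LIF-treated BAE cells, and the lowest LIF-treated library (41.8 CPM) stood well above the highest vehicle-treated one (25.6 CPM). TNFRSF1A rose from vehicle-treated BAE over vehicle-treated BCE and LIF-treated BAE to LIF-treated BCE cells, with 349 CPM in the highest vehicle-treated library and 403 CPM in the lowest LIF-treated one. The neighbours closest to each other relative to their spread were both vehicle-treated groups of OSMR, which did not differ past the threshold, and both LIF-treated groups of TNFRSF1A, whose call depended on single libraries.

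The ratio of 2 genes within a library does not depend on scaling between libraries, and it was followed over the libraries for the 2 death-domain receptors. Since gene lengths were not used, its size does not give the relative abundance of the 2 mRNAs. Per 1000 TNFRSF1A counts there were 48.3 and 48.9 FAS counts in the vehicle-treated BAE libraries and 90.7 and 92.7 in the LIF-treated BAE libraries. In BCE libraries there were 5.20 and 6.41 with vehicle and 12.7 and 10.0 with LIF. The ratio of FAS to TNFRSF1A was thus higher with LIF in both cell types. In BCE cells it rests on 54 to 150 FAS counts, and both genes were chosen on their LIF effect there. The ratios of other gene pairs were not computed, so this is a description only. Per 1000 TNFRSF1A counts, IL4R gave 95.3 and 111 counts in vehicle-treated BAE libraries and 143 and 167 in LIF-treated ones, against 460 and 366 with vehicle and 500 and 504 with LIF in BCE libraries. For OSMR the same measure was 103 and 108 with vehicle and 148 and 127 with LIF in BAE libraries, and 67.3 and 62.6 with vehicle and 91.6 and 101 with LIF in BCE libraries. All 3 ratios were higher with LIF in both cell types, so TNFRSF1A had the smallest proportional rise of the set in each.

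Pathway lists of 234 receptors, ligands, signaling genes and cell type markers could be followed only where a symbol was paired with an identifier, which held for 10 genes, the 4 receptors included. The other 6 were LTBR, STAT3, SOCS2, SOCS3, IL7R and TNFSF18, and since all had been called by the study in BCE cells, only their LIF effects in BAE cells are given with a test. In BAE cells 9 of the 10 passed the threshold (8 in 2 of the alternatives), 7 higher and 2 lower. Over all genes tested there, 13.6% rose and 8.55% fell, but these 10 genes had been selected by their BCE call. The closer background is every named gene, these 10 included. The BAE comparison covered 106 named genes, and LIF raised 79 and lowered 20. A change in BAE cells was thus common among named genes, and no enrichment of the pathway lists is read from it. LTBR, the lymphotoxin beta receptor, is the other TNF-type receptor among the 10. It went from 93.3 ± 2.42 to 141 ± 2.25 CPM with LIF in BAE cells, a log2 fold change of 0.63 (SE 0.0455, adjusted p = 2.90e-08), and from 110 ± 2.75 to 139 ± 2.43 CPM in BCE cells.

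IL7R, the interleukin-7 receptor chain, fell. Its level went from 33.2 ± 0.0799 to 26.2 ± 1.60 CPM with LIF in BAE cells, a log2 fold change of -0.31 (SE 0.0772, adjusted p = 0.00856), and from 34.7 ± 0.527 to 26.1 ± 0.0913 CPM in BCE cells. The BAE call was lost without the first LIF-treated BAE library (adjusted p = 0.0552) and with the number in the descriptions as a replicate block (adjusted p = 0.0593). TNFSF18, a TNF family ligand, was named after its values were seen because it was the gene that missed the threshold in BAE cells, with a log2 fold change of 0.60 (adjusted p = 0.123). Its levels there were low, at 1.35 ± 0.154 CPM with vehicle and 2.03 ± 0.236 CPM with LIF. In BCE cells TNFSF18 went from 4.95 ± 0.317 to 8.88 ± 0.427 CPM. The log2 fold change of 0.84 there was larger in point estimate than in BAE cells.

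Among the signaling genes, SOCS3, the feedback inhibitor of gp130 receptors, rose in BAE cells by a log2 fold change of 3.45 (adjusted p = 1.01e-13). STAT3 rose by 0.99 (adjusted p = 3.88e-11), while SOCS2, another member of the same inhibitor family, had a log2 fold change of -0.75 (adjusted p = 0.00270). The rise of OSMR and IL4R in BAE cells was thus larger than that of STAT3 in point estimate and smaller than that of SOCS3. In BCE cells the log2 fold changes were 1.21 for SOCS3, 0.63 for STAT3 and -0.47 for SOCS2, beside 0.92 for OSMR and 0.63 for IL4R.

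The rise of all 4 receptors in BAE cells was read against the other genes with a name, which had been called in the same BCE comparison. Of 82 such genes that were higher after LIF in BCE cells, 79 were tested in BAE cells, and 74 of these rose and 2 fell. Their median log2 fold change was 0.82 in BAE cells and 0.50 in BCE cells. A rise in BAE cells was therefore the rule among genes selected in this way, and TNFRSF1A, with 0.83, lay almost at that median while OSMR, IL4R and FAS lay above it.

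Across the 8 libraries, the genes most like each receptor were looked for among the 109 other named genes, by Pearson's r of log2 CPM. The libraries fall into 4 groups and all these genes were called in BCE cells, so the values describe shared group differences and carry no test. For OSMR the nearest were SETMAR (r = 0.993), ZCCHC14 (0.990) and FOSL2 (0.987). FOSL2, an AP-1 transcription factor, went from 119 to 286 CPM in BAE cells and from 110 to 186 CPM in BCE cells, so that like OSMR it was near equal between the vehicle-treated groups. For IL4R they were SLC23A2 (r = 0.994), CD14 (0.994) and VLDLR (0.991), of which SLC23A2, a vitamin C transporter, had 7.99 and 18.4 CPM in BAE cells and 31.8 and 46.4 CPM in BCE cells. CD14, a co-receptor for bacterial lipopolysaccharide, and VLDLR, a lipoprotein receptor, were likewise higher in BCE cells in both treatments.

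For TNFRSF1A the nearest were ETS2 (r = 0.985), MT2 (0.980) and GADD45G (0.974). GADD45G was scarce, with 0.304 ± 0.106 CPM in vehicle-treated BAE cells and at most 2.71 ± 0.446 CPM, in LIF-treated BCE cells. Its r therefore rests on few counts and is affected by the prior count. ETS2, a transcription factor of the ETS family, and MT2, a metallothionein, were both higher in vehicle-treated BCE than BAE cells and rose in BAE cells, by 1.46 and 1.38 on the log2 scale. For FAS they were DAB2IP (r = 0.993), MAP1LC3B (0.993) and CHST2 (0.992), each of which was lower in BCE than in BAE cells. MAP1LC3B, which encodes an LC3 protein of autophagosomes, went from 293 to 521 CPM in BAE cells and from 149 to 216 CPM in BCE cells. Among the 4 receptors themselves the correlations ran from -0.57 (IL4R and FAS) to 0.82 (IL4R and TNFRSF1A), so their distribution over the 4 groups was not shared. Their common rise with LIF was fixed in BCE cells by the choice of genes. In BAE cells it was the rule among genes chosen in this way.

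In the RefSeq annotation of a later bovine assembly, used only for the order of genes, OSMR lies next to LIFR, which encodes the LIF receptor, and IL4R next to IL21R, a further cytokine receptor gene. TNFRSF1A is separated from LTBR by SCNN1A alone. FAS lies beside CH25H, which encodes cholesterol 25-hydroxylase and was looked at after its values were seen. CH25H averaged 64.2 CPM with vehicle and 431 CPM with LIF in BAE cells, and 12.3 and 68.3 CPM in BCE cells, so that like FAS it was lower in BCE cells in both treatments and higher with LIF in both cell types. In that annotation TNFRSF1A and FAS each overlap 1 long noncoding RNA gene, and since use of strand in the counting is not given in the sources used here, reads from both cannot be told apart.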

How the data were processed

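Total RNA of 8 samples was sequenced as paired-end libraries. According to the study's methods, the authors aligned the reads to the bovine assembly UMD 3.1 with TopHat2 (2.0.12) and Bowtie2 (2.2.3), counted them on genes with HTSeq (0.6.1) and compared groups with DESeq (1.18.0). The deposited matrix holds raw counts per gene and library, without normalization. Strand and multiple-mapping settings are not given in the sources used here, and near-identical or overlapping genes remain uncertain. The deposited table of the authors' BCE comparison (fold changes and p-values) was used for gene names alone, together with the name columns of a supplementary table, and named 110 identifiers. The table labelled as the BAE comparison is identical to it byte for byte and was not used. Groups came from the sample titles.

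Counts were analysed in R (4.3.3) with edgeR (4.0.16): filterByExpr (minimum count 10, total 15), TMM scaling, quasi-likelihood test, Benjamini-Hochberg adjustment over all genes tested and a threshold of 0.05. Each comparison used its own 4 libraries and the interaction all 8. Standard errors came from the log2 fold change and F statistic, and 95% intervals are not adjusted for multiple tests. Poisson intervals and the floor of 3 counts cover counting error only. For correlations, a prior count of 2 was added before log2 CPM was taken. The test was checked on simulated data. Alternatives were DESeq2 size factors, the DESeq2 test (1.42.0), no filter, at least 10 counts in every library, replicate blocks, a joint fit of the 8 libraries, and leaving out libraries in turn. With a library left out, the lone library of a group was assumed to vary like the others.

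The 4 receptors and the gene lists were chosen with earlier results of these data known. Beyond the 4 receptors and LTBR, the genes named were the list members with an identifier that changed in BAE cells (at most 3 rises and 3 falls per list) and the 3 named genes most correlated with each receptor. TNFSF18 and CH25H were added after their values were seen. Part of the signaling lists is not reported here.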

Additional observations from a re-analysis of the deposited data

Results flagged for a closer look

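The LIF effect differed between the cell types in the interaction test for 2 of the 4 receptors. Over all 13646 genes tested, 3.68% passed in either direction and 2.52% with the smaller effect in BCE cells. IL4R had a log2 difference of -0.76, BCE minus BAE (adjusted p = 0.00628 in edgeR's quasi-likelihood test), with a rise of 1.42 in BAE against 0.63 in BCE cells. For TNFRSF1A it was -0.44 (adjusted p = 0.000615), with a rise of 0.83 in BAE against 0.36 in BCE cells. The TNFRSF1A call was kept in all 14 alternatives, and the IL4R call in 11 of 14. Other named genes higher after LIF in BCE cells also had a smaller median rise there, 0.50 against 0.82 in BAE cells. The BCE libraries of this test were those on which the genes had been chosen, so its p-values are not free of that choice. Cell type cannot be told apart from serum.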

How the results depend on the processing

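No direction of the 4 receptors was reversed in any alternative, and every LIF effect in BAE cells stayed past the threshold. Genes called in BAE cells went from 2889 to 1922 with the DESeq2 test and ranged from 1807 to 2905 with a library left out (1807 without the first LIF-treated library). In BCE cells the count went from 120 to 437 with no filter, to 217 with all 8 libraries and to between 55 and 1423 with a library left out (1423 and 477 without the first and second vehicle-treated library, 56 and 55 without the first and second LIF-treated one), and the IL4R effect ranged from 0.48 to 0.81. For the interaction the count went from 502 to 889 with no filter and ranged from 261 to 948 (948 without the first vehicle-treated BCE library), and the IL4R difference ranged from -0.94 to -0.60. The TNFRSF1A difference between LIF-treated cell types ranged from 0.096 to 0.16. The causes were not tested.

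The replicate numbers of the titles showed little sign of pairing the samples. Deviations of same-numbered libraries had a correlation of -0.021 in BAE and 0.10 in BCE cells, and the sample descriptions give other numbers. These correlations cannot exclude a pairing. With the titles' replicate block the BCE count was 226 and no call of a receptor changed. With the descriptions' number as a replicate block the BAE count was 1461, the interaction count 179 and the IL4R difference -0.65, which no longer passed. The precision of FAS in BCE cells is limited by its 54 to 150 counts.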
